A study of Mus musculus with 6 samples.

Results

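The mitotic genes described here are 35 genes that carry a cell through G2 and M phase, chosen by gene symbol from a fixed list. The rule holds no measured value, but the list was drawn up with earlier results of these data known. All 35 of 35 were present in the deposited table of 23207 gene symbols, all had estimated counts in every library, and all 35 passed the filter on low counts that left 19745 genes. The RNA was taken from endothelial cells of the spleen in 6 mice with the Apoe gene knocked out, which lack apolipoprotein E and become hypercholesterolaemic on a cholesterol-rich diet. Each mouse gave 1 library. The control group held 3 mice (1601, 1602 and 1608) treated with a control antisense oligonucleotide (ASO), a chemically made strand of nucleotides designed to base-pair with its target transcript. The other 3 mice (1603, 1604 and 1607) had received an ASO against Mlkl, the pseudokinase that carries out necroptosis. In both groups the ASO was given over 8 weeks together with high cholesterol feeding, so the Apoe deletion and the diet were common to all 6 mice. The sources used here do not state the age or sex of the mice, the ASO dose or how endothelial cells were isolated.

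A dividing cell builds up its mitotic transcripts late in the cycle. In resting cells and in G1 the DREAM repressor complex holds these genes down, mainly through a promoter element called the CHR (cell cycle genes homology region), and from late S phase the B-MYB and FOXM1 activators work through the same element, with NF-Y bound to neighbouring CCAAT boxes. Endothelium of an adult spleen divides slowly, whereas erythroblasts, which mature in the red pulp of the mouse spleen, divide rapidly and express the same genes. Rhag, a membrane protein of the Rh complex of red cells, and Klf1, the erythroid master transcription factor, were therefore read in each library beside the mitotic genes.

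Libraries held 59988846 to 87776706 estimated counts. Mlkl measured 30.7, 31.2 and 38.0 CPM (estimated counts scaled to a common library size, with TMM factors) in control mice 1601, 1602 and 1608 and 7.53, 5.81 and 3.74 CPM in mice 1603, 1604 and 1607, so the targeted transcript was lower in each mouse of the MLKL ASO group (log2 fold change -2.55, standard error 0.27, adjusted p = 0.0655 by edgeR and 1.13e-15 by DESeq2). All 15 endothelial markers of a fixed list were detected in every library, with a summed level of 3318 to 6109 CPM in control mice and 4171 to 4674 CPM in MLKL ASO mice. Blood cell markers were detected as well, and control mice differed in them. Mouse 1601 had the highest summed B cell (2465 CPM) and T cell (560.7 CPM) markers of the 6 libraries and the lowest endothelial sum. Mouse 1608 stood apart with 114 CPM over 12 megakaryocyte markers, against 1232 to 3099 CPM in the other mice. In bulk libraries such as these, fewer cells of a type and less RNA per cell cannot be told apart.

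All 35 mitotic genes had a higher fitted level with the MLKL ASO, and 0 of them passed the threshold. Their log2 fold changes in edgeR, a count model, ran from 0.12 for Bub3 to 1.25 for Anln with a median of 0.85, where the median of all genes tested was -0.0092 and 48.8% of them lay above 0. At an adjusted p under 0.05 over all genes, edgeR's quasi-likelihood test called 0 mitotic genes, and 0.00506% of all genes were higher by that rule. At an unadjusted p under 0.05 it placed 25 of 35 as higher and 0 as lower, against 4.89% and 6.96% of all genes. DESeq2, a second count model, gave an adjusted p to 18571 genes and called 1.18% of these higher and 1.63% lower. It called 7 of 35 higher (Mki67, Cenpf, Tpx2, Prc1, Anln, Ckap2 and Psrc1) and 0 lower. In the authors' deposited table, where 0.872% of rows with an adjusted p were higher, the count was 7 as well, and 7 genes were called in both. In the authors' deposited table their adjusted p ran from 0.00111 for Ckap2 to 0.0496 for Cenpf. The 2 sets of calls share their libraries. On simulated counts DESeq2 also called 79 unchanged genes, against 15 by edgeR. Leaving out 1 mouse changed the DESeq2 count. It was 32 without mouse 1601, where 3.47% of genes with an adjusted p were higher, and 7 without mouse 1608, where 2.79% were. It was 3 without mouse 1602 (0.947% of genes), 2 without mouse 1603 (0.489%), 1 without mouse 1604 (0.431%) and 5 without mouse 1607 (0.487%). By limma-voom with sample weights 0 were called, against 0.0456% of all genes.

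Groups did not overlap in 15 of 35 mitotic genes, in each case higher with the MLKL ASO, where 9.02% of all genes had that pattern; 0 were lower without overlap, against 9.71% of all genes. The exact permutation test reached 0.1 for these 15, the smallest p that 3 mice against 3 allow. The overlap in the remaining 20 came from a single pair of mice: control mouse 1601 lay above mouse 1607. All 35 genes were higher in mice 1603 and 1604 than in any control mouse, all 35 had mouse 1601 as the highest control, and 33 had mouse 1607 as the lowest of the MLKL ASO group. Shares over all genes were not computed for these ranks of mice 1601 and 1607. Without mouse 1601, and equally without mouse 1607, the groups were apart in 35 of 35 genes, against 15.8% and 13.8% of all genes in those settings. That result follows from the single overlapping pair and is no further evidence. Without mouse 1602, 1603, 1604 or 1608 the count stayed at 15. Scaled by library totals alone, 24 genes had groups apart, against 9.08% of all genes.

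**Figure D1:**
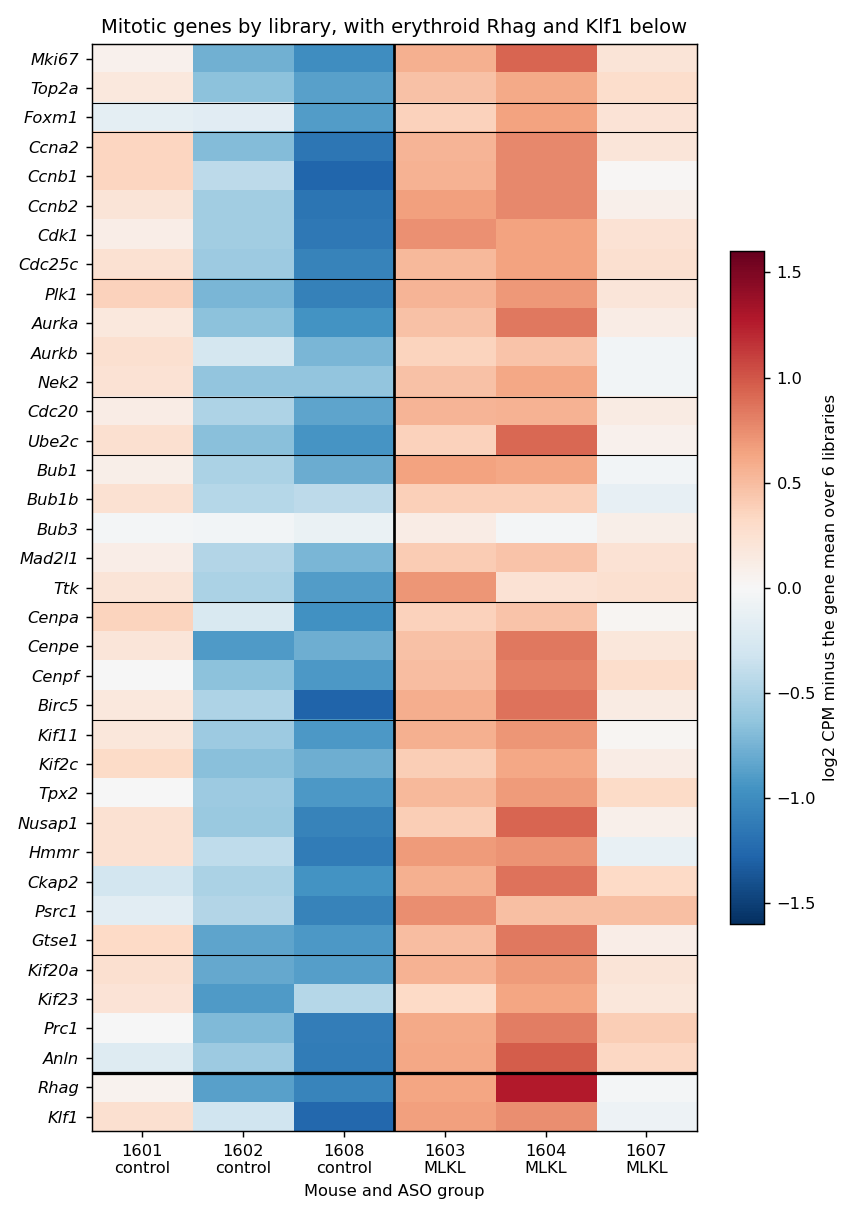
Level of each of the 35 mitotic genes (rows, set apart by role with thin lines) and of Rhag and Klf1 (below the thick line) in the 6 libraries (columns), as log2 CPM minus the mean of that gene over the libraries. Mice 1603 and 1604 are high and 1602 and 1608 low along nearly every row, 1601 and 1607 lie between them, and Bub3 is almost flat.

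Promoters were compared because the levels of the members went together from mouse to mouse. RefSeq promoter windows (GRCm38.p6, 250 bases before to 50 bases after an annotated start) were matched by symbol for 29 of 35 members, 4 of them with 2 starts, giving 33 windows. The CHR was searched as TTTGAA and the NF-Y box as CCAAT, each on both strands; no CHR match shared a base with a CCAAT match (0 overlaps). The CHR letters were found in 22 of 33 member windows (66.7%) against 17.9% of all 32851 windows, CCAAT in 84.8% against 37.4%, and both in 60.6% against 6.95%. Among 34 windows of S phase genes, 11.8% held the CHR letters and 64.7% CCAAT, and among 47 windows of further mitotic genes not in the list of 35 the shares were 61.7% and 74.5%. They were 12.5% and 37.5% among 16 windows of erythroid markers, and 20% and 26.7% among 15 windows of endothelial markers. The windows of Prc1 overlap each other, as do those of Bub3, so their matches were counted in both. The match positions of Psrc1 and Gtse1 allow their windows to overlap as well, so the 33 windows are not all independent. By gene, 20 of 29 members held the CHR letters and 24 of 29 CCAAT, against 5466 and 11096 of all 27025 genes. Birc5, Mad2l1 and Nusap1 held neither. These shares describe letters in a window and were not tested. The sequences below run 5′ to 3′ along the gene from 120 bases before to 30 bases after the start, with CHR and CCAAT matches, or their reverse complements, in capitals. They show the most used proliferation marker, the mitotic kinase and its cyclin, the APC/C activator, and the members at both ends of the fold changes.
Mki67, chr7:135716350-135716499, - strand: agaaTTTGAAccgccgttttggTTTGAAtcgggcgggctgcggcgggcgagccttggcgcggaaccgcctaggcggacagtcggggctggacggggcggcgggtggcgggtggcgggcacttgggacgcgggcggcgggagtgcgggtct
Cdk1, chr10:69352883-69353032, - strand: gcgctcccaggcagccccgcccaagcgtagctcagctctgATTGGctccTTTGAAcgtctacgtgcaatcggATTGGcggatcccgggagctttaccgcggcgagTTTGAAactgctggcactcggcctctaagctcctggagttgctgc
Ccnb2, chr9:70421525-70421674, - strand: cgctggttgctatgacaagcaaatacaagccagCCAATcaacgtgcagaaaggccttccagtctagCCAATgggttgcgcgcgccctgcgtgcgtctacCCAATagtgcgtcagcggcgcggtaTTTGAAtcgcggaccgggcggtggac
Cdc20, chr4:118437314-118437463, - strand: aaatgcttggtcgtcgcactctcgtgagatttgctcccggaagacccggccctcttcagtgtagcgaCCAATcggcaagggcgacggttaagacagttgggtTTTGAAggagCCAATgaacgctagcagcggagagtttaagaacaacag
Prc1, chr7:80294331-80294480, + strand: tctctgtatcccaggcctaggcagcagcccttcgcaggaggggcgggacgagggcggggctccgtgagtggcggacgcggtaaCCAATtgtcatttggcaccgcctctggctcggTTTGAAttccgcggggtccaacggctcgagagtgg
Anln, chr9:22389177-22389326, - strand: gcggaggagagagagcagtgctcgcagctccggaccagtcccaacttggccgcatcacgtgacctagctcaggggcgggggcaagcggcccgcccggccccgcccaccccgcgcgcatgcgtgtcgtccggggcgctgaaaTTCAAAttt
Bub3, chr7:131560250-131560399, + strand: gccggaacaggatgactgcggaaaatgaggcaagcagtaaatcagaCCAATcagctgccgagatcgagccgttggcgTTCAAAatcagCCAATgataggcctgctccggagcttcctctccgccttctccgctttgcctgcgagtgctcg
Cdk1, Ccnb2, Cdc20 and Prc1 carry a CHR match and at least 1 CCAAT match in this stretch, and Mki67 carries 2 CHR matches. Bub3, the member with the smallest fold change, also holds 1 CHR match and 2 CCAAT matches, and Anln, with the largest, holds 1 CHR match and 0 CCAAT matches here.

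**Figure D2:**
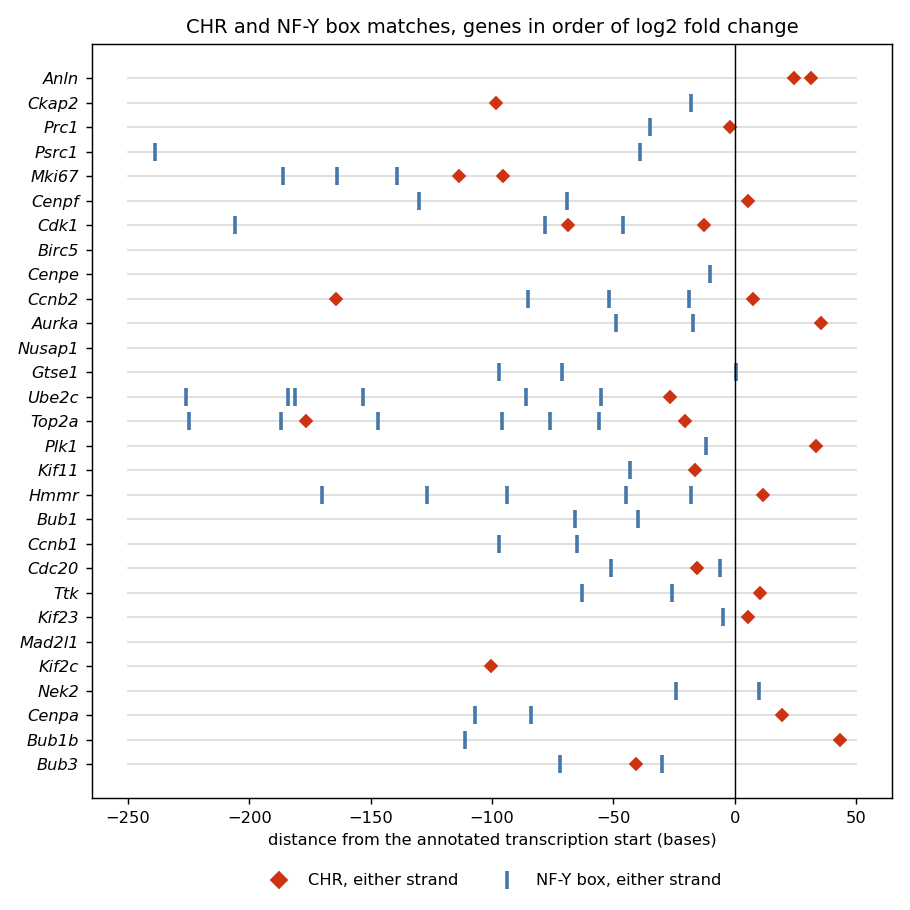
Matches to the CHR (diamonds) and to the NF-Y box, CCAAT (bars), on either strand in the RefSeq window of 29 mitotic genes, by distance in bases from the annotated start; genes are ordered by edgeR log2 fold change, the largest on top. Matches cluster upstream of and around the start over the whole range of fold changes, from Anln to Bub3.

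The general proliferation markers separated the groups. Mki67, which coats mitotic chromosomes, measured 144, 80.5 and 69.4 CPM in control mice 1601, 1602 and 1608 and 204, 262 and 159 CPM in mice 1603, 1604 and 1607. Its log2 fold change was 1.09 ± 0.31 (here and below ± gives the standard error; edgeR adjusted p = 0.332, DESeq2 adjusted p = 0.0310). Top2a, the topoisomerase that untangles sister chromatids, measured 135, 75.8 and 65.8 CPM against 166, 182 and 146 CPM in the same order (log2 fold change 0.84 ± 0.27). In both genes the lowest MLKL ASO mouse, 1607, stood just above the highest control mouse, 1601. Foxm1, the transcription factor that switches on many of the other members, was low throughout, at 2.39, 2.35 and 1.43 CPM in control mice and 3.46, 4.17 and 3.11 CPM in MLKL ASO mice, also without overlap (log2 fold change 0.79 ± 0.29).

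The cyclin and CDK1 genes showed the order of mice clearly. Ccnb1, cyclin B1, measured 101, 59.7 and 33.1 CPM in control mice and 117, 135 and 80.5 CPM with the MLKL ASO, and mouse 1607 lay below mouse 1601. Ccnb2, cyclin B2, went the same way at 93.9, 55.3 and 36.1 against 127.5, 139 and 86.1 CPM. The cyclin of S and early G2 phase, Ccna2, measured 56.7, 27.7 and 20.1 against 65.4, 76.0 and 51.1 CPM. All 3 cyclin genes overlapped through that one pair of mice, and their log2 fold changes of 0.78, 0.93 and 0.88 carried standard errors of 0.39, 0.35 and 0.37. Cdk1, the kinase that cyclin B activates, was apart, at 48.5, 30.7 and 20.4 CPM in control and 74.9, 70.4 and 52.9 CPM in MLKL ASO mice (log2 fold change 0.99 ± 0.31). Cdc25c, the phosphatase that releases Cdk1 from inhibition, was narrowly apart with 9.31, 5.27 and 3.75 against 11.3, 12.3 and 9.39 CPM (log2 fold change 0.85 ± 0.34).

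The groups overlapped in the Polo, Aurora and NIMA-related kinase genes Plk1, Aurka, Aurkb and Nek2. Plk1, Polo-like kinase 1, which drives mitotic entry, measured 45.1, 21.0 and 16.4 CPM in control mice and 50.9, 56.4 and 39.7 CPM in MLKL ASO mice (log2 fold change 0.83 ± 0.37). Aurka, the spindle pole kinase, measured 34.7, 19.6 and 15.96 against 42.7, 55.3 and 33.6 CPM (log2 fold change 0.90 ± 0.32). In both kinase genes mouse 1607 lay below mouse 1601. Aurkb, the related kinase of the centromere, differed less, with 30.3, 20.9 and 15.3 against 32.4, 34.8 and 24.6 CPM (log2 fold change 0.47 ± 0.26). Nek2, a centrosome kinase, had a log2 fold change of 0.66. Of the genes of the anaphase-promoting complex (APC/C), the ligase that ends mitosis, its activator Cdc20 measured 61.7, 40.3 and 31.7 CPM in control and 82.9, 83.7 and 62.6 CPM in MLKL ASO mice, so mouse 1607 was barely above mouse 1601 (log2 fold change 0.78 ± 0.25). Ube2c, its ubiquitin-conjugating enzyme, overlapped at 79.3, 41.9 and 34.5 against 85.8, 125 and 69.6 CPM (log2 fold change 0.85 ± 0.35).

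Spindle checkpoint genes, which delay anaphase until every chromosome is attached, included the smallest differences of the list. Bub3, a WD-repeat adaptor that is expressed outside mitosis too, measured 206, 205 and 195 CPM in control and 228, 207 and 224 CPM in MLKL ASO mice. Its groups were just apart and its log2 fold change was 0.12 ± 0.10. Bub1b, which encodes BubR1, measured 29.98, 18.5 and 18.9 against 32.9, 33.0 and 23.1 CPM (log2 fold change 0.40 ± 0.24), so its control mice 1602 and 1608 were alike. The kinase gene Bub1 measured 16.3, 10.7 and 8.84 against 23.9, 23.4 and 14.8 CPM (log2 fold change 0.79 ± 0.28). Mad2l1, the inhibitor of Cdc20, was apart at 41.5, 27.8 and 23.1 against 51.1, 52.6 and 45.3 CPM (log2 fold change 0.69 ± 0.22). Ttk, the kinase MPS1, also had groups apart, with a log2 fold change of 0.74.

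At the centromere and kinetochore the 4 genes ranged from 0.49 to 1.02 on the log2 scale. Cenpf, a large kinetochore protein of late G2, measured 37.0, 23.5 and 19.6 CPM in control and 52.2, 65.0 and 45.2 CPM in MLKL ASO mice and was apart (log2 fold change 1.02 ± 0.26). Cenpe, the kinetochore motor, overlapped narrowly, at 35.5, 16.6 and 18.2 against 43.2, 56.0 and 35.2 CPM (log2 fold change 0.94 ± 0.32). Birc5 (survivin), a subunit of the chromosomal passenger complex, measured 86.6, 54.5 and 31.8 against 115, 141 and 84.5 CPM (log2 fold change 0.98 ± 0.36). In Cenpe and Birc5 mouse 1601 lay just above mouse 1607. Cenpa, the histone variant of centromeres, differed least of these with 110.3, 73.0 and 44.0 against 112, 119 and 88.3 CPM, a log2 fold change of 0.49 ± 0.31.

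The 4 genes of the spindle midzone and of cytokinesis had a median log2 fold change of 1.01 and included the largest value of the list. Anln, anillin, the scaffold of the contractile ring, measured 17.3, 13.3 and 9.18 CPM in control mice and 30.7, 38.9 and 25.1 CPM in MLKL ASO mice. The log2 fold change was 1.25 ± 0.27 (edgeR adjusted p = 0.264, DESeq2 adjusted p = 0.00156). Prc1, which bundles midzone microtubules, measured 51.7, 31.6 and 23.9 against 78.6, 91.6 and 68.2 CPM (log2 fold change 1.15 ± 0.28). In both genes every MLKL ASO mouse was well above mouse 1601. The midzone motor gene Kif20a overlapped, at 48.2, 22.9 and 21.9 against 59.1, 64.9 and 46.7 CPM (log2 fold change 0.88 ± 0.32), as did Kif23, a subunit of centralspindlin, with a log2 fold change of 0.70.

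Of 8 genes for spindle motors and microtubule factors, 3 had groups apart. Ckap2, a spindle stabiliser, measured 11.5, 9.97 and 7.24 CPM in control and 20.9, 25.6 and 17.6 CPM in MLKL ASO mice, a log2 fold change of 1.16 ± 0.23, and it had the smallest adjusted p of the 35 genes in edgeR (0.234) and in DESeq2 (0.000540). Psrc1, a spindle protein of low level here, measured 6.16, 4.995 and 3.31 against 11.6, 9.69 and 9.63 CPM (log2 fold change 1.10 ± 0.26). Tpx2, the activator of Aurora A on the spindle, measured 51.9, 34.9 and 27.5 against 74.3, 83.5 and 64.3 CPM (log2 fold change 0.96 ± 0.24). These 3 genes kept mouse 1607 clear of mouse 1601. Kif11, the motor that separates the spindle poles, did not, at 61.5, 36.3 and 28.8 against 80.3, 88.8 and 55.6 CPM (log2 fold change 0.83 ± 0.30). The log2 fold changes of Kif2c, a microtubule depolymerase, of the bundling factor Nusap1 and of Hmmr and Gtse1, which bind spindle microtubules, were 0.68, 0.88, 0.80 and 0.87, all with overlap. Leaving out each mouse in turn kept all 35 log2 fold changes above 0, the smallest being 0.081 for Bub3.

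Set beside Rhag and Klf1, 16 of 35 mitotic genes had the same order of mice. Rhag measured 70.5, 37.2 and 32.5 CPM in control mice 1601, 1602 and 1608 and 105, 163 and 66.6 CPM in mice 1603, 1604 and 1607. Its adjusted p was 0.352 by edgeR, 0.0491 by DESeq2 here and 0.066 in the authors' deposited DESeq2 table. Klf1 measured 129, 86.4 and 45.4 against 169.6, 181 and 102 CPM (adjusted p = 0.458 by edgeR and 0.278 by DESeq2). Both genes were highest in mouse 1604, then 1603, 1601, 1607, 1602 and 1608, and mouse 1607 was below mouse 1601 in each. That exact order of 6 mice was shared by 16 of 35 mitotic genes. Mouse 1604 was highest in 30 of 35 and mouse 1608 lowest in 32 of 35. Shares over all genes were not computed for these counts, and the members vary together, so the matches are not independent. The wider erythroid list ordered the mice differently. Its 18 markers summed to 2221 CPM in control mouse 1601 and 2021 CPM in mouse 1603, and globin genes held 11.7% and 8.3% of counts. All 35 mitotic genes were higher in mouse 1603 than in mouse 1601.

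**Figure D3:**
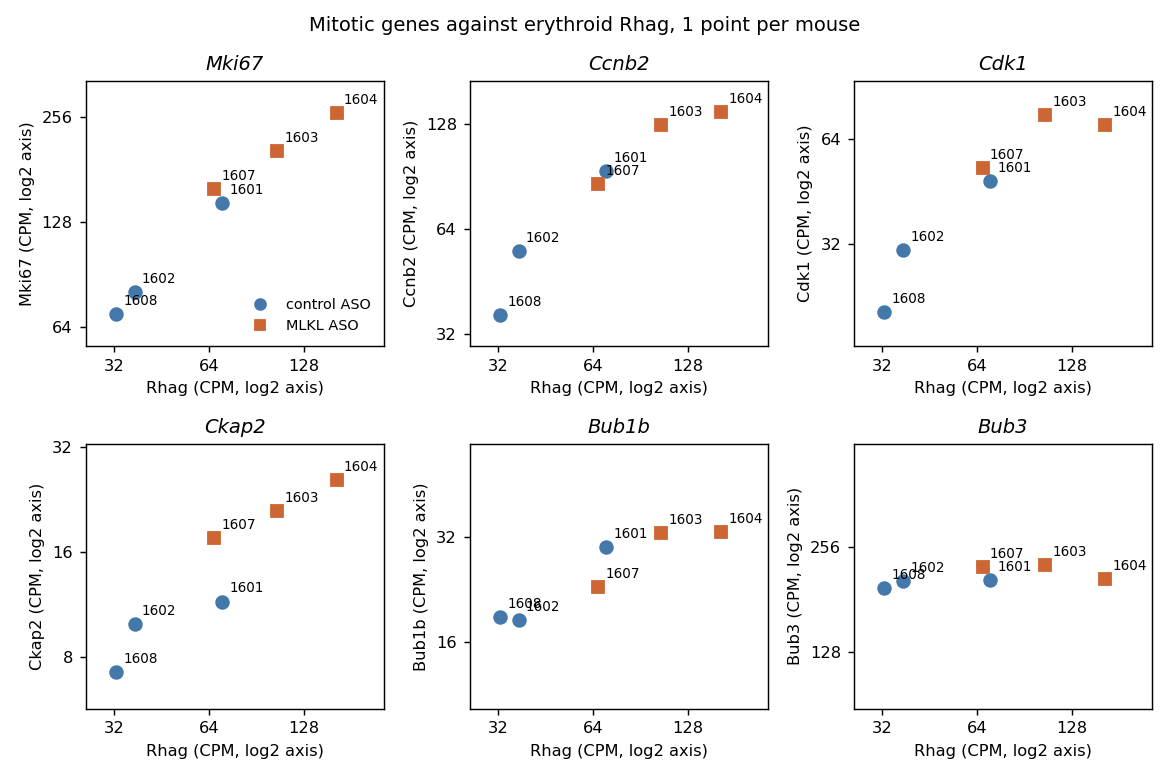
Levels of 6 mitotic genes against Rhag, both in CPM on log2 axes, with 1 point per mouse (circles, control ASO; squares, MLKL ASO). Mki67, Ccnb2 and Cdk1 are lowest in mouse 1608 and highest in mice 1603 and 1604, with Cdk1 slightly lower in mouse 1604 than in mouse 1603. At a like Rhag level mouse 1607 lies above mouse 1601 in Mki67, Cdk1, Ckap2 and Bub3, most clearly in Ckap2, and Bub3 is nearly flat.

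With the mean log2 CPM of Rhag and Klf1 added to the edgeR model as a covariate, the median log2 fold change of the mitotic genes was 0.12 in place of 0.85. In that model 27 of 35 genes lay above 0 (47.7% of all genes) and 0 passed the threshold, as did 0% of all genes in the upward direction. At an unadjusted p under 0.05, 5 genes were higher, where 5.87% of all genes were: Anln (log2 fold change 0.60 ± 0.19), Ckap2 (0.64 ± 0.21), Prc1 (0.51 ± 0.18), Cenpf (0.41 ± 0.17) and Tpx2 (0.40 ± 0.17). Mki67 stood at 0.32 ± 0.17, and Psrc1, with the largest value of the list, at 0.69 ± 0.31. The 8 genes that turned below 0 were Ccnb1, Aurkb, Bub1b, Cenpa, Ube2c, Nusap1, Hmmr and Nek2, between -0.23 and -0.012. The covariate takes 1 of 4 residual degrees of freedom and was itself higher on average with the MLKL ASO, so the group and the erythroid level are only partly separable here.

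**Figure D4:**
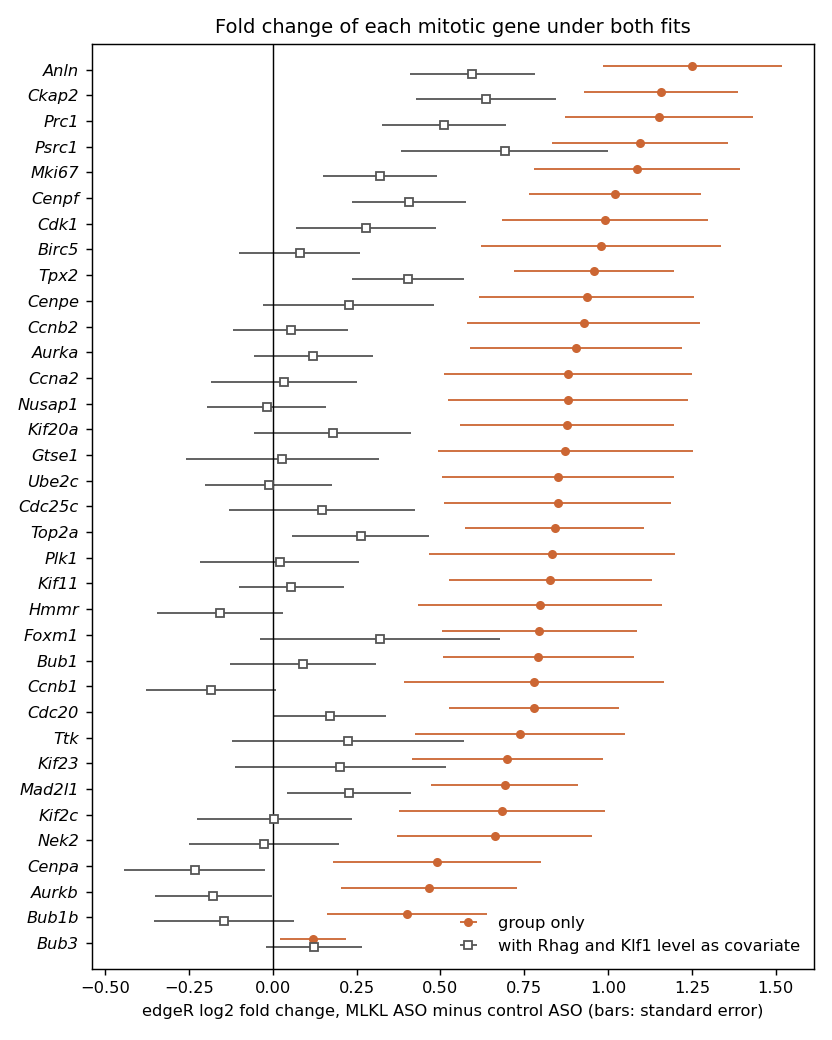
edgeR log2 fold change of each of the 35 mitotic genes, MLKL ASO minus control ASO, with its standard error, from the model with the group alone (circles) and with the mean log2 CPM of Rhag and Klf1 as a covariate (squares). The medians are 0.85 and 0.12, and Anln, Ckap2, Prc1 and Psrc1 keep the largest values under the covariate.

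Expressed per unit of Rhag and Klf1 (CPM divided by the geometric mean CPM of both in the same library), 0 of 35 mitotic genes were higher without overlap, against 0.199% of 19087 genes detected in every library. Lower without overlap were 3 genes, Aurkb, Bub1b and Cenpa, where 30.7% of those genes were. The group difference in this log2 ratio had a median of -0.12 and ran from -0.94 for Bub3 to 0.21 for Anln, with 28 of 35 genes below 0. The divisor was itself higher on average with the MLKL ASO. Mean log2 CPM of Rhag and Klf1 was 6.57, 5.83 and 5.26 in control mice 1601, 1602 and 1608. In mice 1603, 1604 and 1607 it was 7.06, 7.42 and 6.37. A gene of unchanged CPM therefore lies below 0 in this difference, and the share of all genes below 0 was not computed. The Mki67 log2 ratio was 0.60, 0.51 and 0.86 in control mice 1601, 1602 and 1608 and 0.61, 0.61 and 0.94 in mice 1603, 1604 and 1607. These groups overlapped, and mouse 1607 held the highest value.

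Further cell cycle genes showed a like pattern in the model with the group alone. Of 49 measured mitotic genes outside the list of 35, 46 lay above 0 on the log2 scale (median 0.71). Of the 49 genes, edgeR called 0 and DESeq2 4 (Pimreg, Ect2, Sgo2a and Pbk, the last named after its values were seen). The authors' deposited table called 2 of the 49 higher. Pimreg, a mitotic regulator that binds the clathrin adaptor CALM, measured 3.47, 2.33 and 3.08 CPM in control and 9.13, 6.69 and 8.36 CPM in MLKL ASO mice, a log2 fold change of 1.45 (edgeR adjusted p = 0.166). Ect2, which is needed for cytokinesis, measured 18.8, 11.9 and 12.9 against 25.4, 34.4 and 23.1 CPM, and Sgo2a, a protector of centromeric cohesion, had a log2 fold change of 0.97. Pttg1 (securin), named after its values were seen, was lower without overlap at a log2 fold change of -0.20. All 36 S phase genes lay above 0 with a median of 0.54 (0.84 without mouse 1601, 0.35 without mouse 1608), and 12 had an unadjusted p under 0.05 in edgeR against 25 of the 35 mitotic genes. Of these S phase genes DESeq2 called 1, Ccne2 (cyclin E2), at 30.6, 14.6 and 18.1 against 48.6, 52.4 and 36.5 CPM. Orc6, a subunit of the origin recognition complex, had a log2 fold change of 0.52 and Clspn, a replication checkpoint adaptor, of 0.88. With the Rhag and Klf1 covariate the S phase median was -0.092, with 13 of 36 genes above 0. The median of the 49 other mitotic genes was then 0.060, with 31 above 0, where 47.7% of all genes were.

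Regulators that act upstream of the mitotic genes were read as well. Among 18 measured genes for DREAM, B-MYB, E2F and NF-Y subunits 13 lay above 0. Their median was 0.18 (0.30 without mouse 1601, 0.30 without mouse 1607, 0.11 without mouse 1604 and 0.11 without mouse 1608). Of these regulators 0 were called by edgeR or DESeq2, and 2 had an unadjusted p under 0.05 (E2f8 and E2f3). The repressor gene E2f8, which rises in S phase, measured 9.05, 5.01 and 4.47 against 11.4, 15.3 and 8.95 CPM. E2f3, an activating E2F, had a log2 fold change of 0.55 and E2f7, a repressor like E2f8, of 0.95. Of 12 CDK inhibitor and quiescence genes 6 were above 0 and 6 below, and edgeR and DESeq2 called 0. The authors' deposited table called 1 of the 12 lower. Cdkn1a, the p21 inhibitor of cyclin-dependent kinases, measured 116, 175 and 246 CPM in control and 292, 302 and 499 CPM in MLKL ASO mice and was apart (log2 fold change 1.03 ± 0.31). It was highest in mouse 1607 and lowest in mouse 1601, unlike the mitotic genes. Cdkn1c, the p57 inhibitor, was lower at 3.25, 8.24 and 3.11 against 2.45, 1.93 and 1.45 CPM, and the antiproliferative gene Btg2 had a log2 fold change of -0.44.

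Markers of other cells that can divide in the spleen are given for the same libraries. All 18 of 18 erythroid markers lay above 0 on the log2 scale, with median 0.78 (1.29 without mouse 1601, 0.43 without mouse 1604), and 3 had an unadjusted p under 0.05 in edgeR (Rhag, Tfrc and Ermap). edgeR called 0 of them after adjustment and DESeq2 called 1, Rhag. The authors' deposited table called 0 of the 18. Their summed level was 975.9 to 2221 CPM in control and 1476 to 3183 CPM in MLKL ASO mice. The 12 granulocyte progenitor markers summed to 179.6 to 1450 CPM in control and 618.8 to 1720 CPM in MLKL ASO mice, with 11 above 0. Their median of 0.73 depended strongly on single mice (2.1 without mouse 1601, 0.10 without mouse 1604 and 0.28 without mouse 1608). Mpo, Ctsg and Ms4a3, genes of the early granulocyte lineage, had log2 fold changes of 1.22, 0.96 and 0.96 with standard errors of 0.77 to 0.83. The 12 megakaryocyte markers summed to 114 to 1709 and 1471 to 3099 CPM, all 12 above 0 (median 1.04, and 0.53 without mouse 1608), and Vwf, Itgb3 and Clec1b had log2 fold changes of 1.15, 0.85 and 0.82. By contrast, 10 of 10 B cell markers and 10 of 10 T cell markers were below 0, among them Cd22 and Blk (-1.01 and -0.87) and Cd5, Thy1 and Cd4 (-0.57, -1.22 and -1.29). The B cell median was -0.67 (-0.33 without mouse 1601) and the T cell median -1.19 (-0.74 without mouse 1601). edgeR called 0 of these 20 and DESeq2 called 6 T cell markers lower. The authors' deposited table called 3 T cell markers lower. The 8 germinal centre markers summed to 89.1 to 96.4 CPM in control and 81.7 to 111 CPM in MLKL ASO mice, with 7 below 0 and 1 above, and 2 lower without overlap. Fas stood at -0.43, Neil1 at -0.46 and Gcsam, the 1 above 0, at a log2 fold change of 1.10. Of 9 stem and progenitor markers 4 lay above 0, with Myb at 0.67, Cd34 at 0.50 and Flt3 at -0.74. Endothelial markers had 5 of 15 above 0, with Emcn at 0.45, Vwf (also on the megakaryocyte list) at 1.15 and Robo4 at -0.61. Groups were apart in 0 of 18 erythroid and 0 of 12 granulocyte progenitor markers. Higher without overlap were 4 of 12 megakaryocyte, 2 of 15 endothelial and 1 of 9 stem and progenitor markers, against 9.02% of all genes. Lower without overlap were 10 of 10 T cell, 3 of 10 B cell, 2 of 8 germinal centre and 1 of 9 stem and progenitor markers, against 9.71%. Of these marker genes 0 were at 0 CPM in any library. The part of each cell type in the mitotic levels was not tested.

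**Figure D5:**
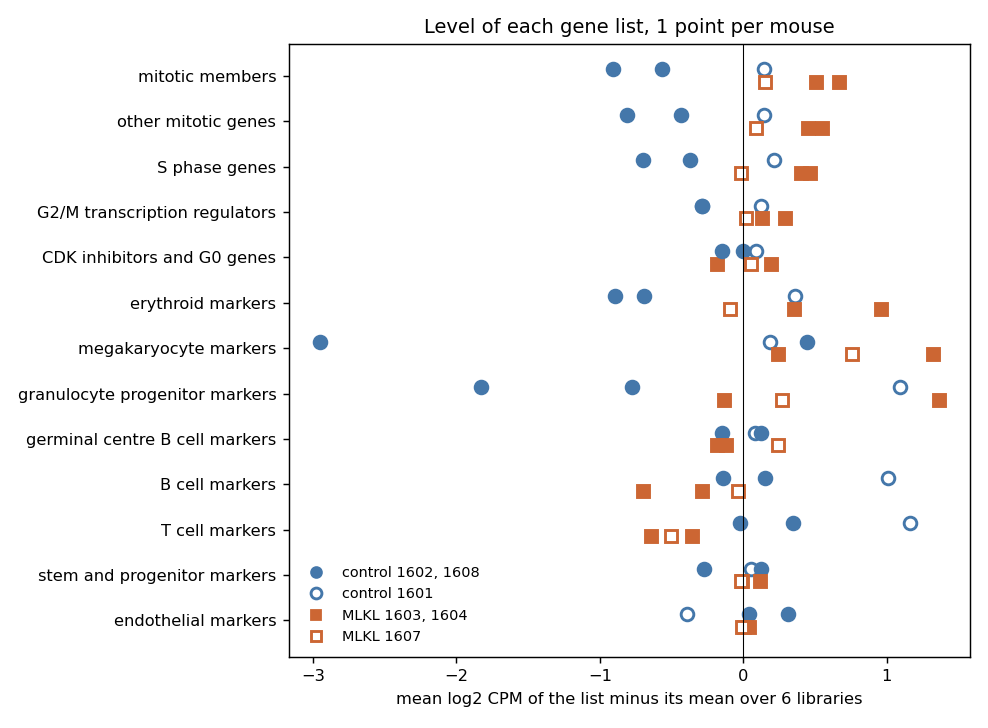
Mean log2 CPM of each gene list in each library, minus the mean of that list over the 6 libraries (circles, control ASO; squares, MLKL ASO; open symbols, control mouse 1601 and MLKL ASO mouse 1607). Both mitotic lists and the S phase, G2/M regulator, erythroid and granulocyte progenitor lists are lowest in mice 1602 and 1608. B and T cell markers are highest in mouse 1601.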

How the data were processed

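A Direct-zol kit was used for RNA and a strand-specific mRNA kit for libraries, per the labels' protocols. The submitters' processing notes name fastp 0.20.1, Salmon 1.3.0 and DESeq2. For genome build and annotation: not given in the sources used here; genes were matched by symbol. The authors deposited estimated counts per gene, 69.3% of them not whole, 1 column per mouse. Genes with near-identical copies are uncertain, and the strand setting of the counting is not stated. Of the symbols, 4 are numbers (0.00146% of counts) and were kept. The authors also deposited a DESeq2 table holding, per the file headers, a mean normalised count (signal), a log2 fold change with its standard error, a Wald score, a p-value and its adjusted p-value. Its direction was settled from the data (Pearson r 0.977 with the fold changes computed here across 19728 genes, which are not independent replicates).

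Estimated counts were rounded and fitted in R 4.3.3 with edgeR 4.0.16 (filterByExpr, TMM, quasi-likelihood, two-sided, Benjamini-Hochberg, threshold 0.05 over all genes), with no block, since mouse numbers do not recur between groups. Alternatives used RLE, upper-quartile and no scaling, removal of 261 globin and immunoglobulin genes, no count filter, a filter asking 3 libraries with 1 CPM or more, edgeR's robust option, DESeq2 1.42.0, limma-voom (limma 3.58.1), a covariate of Rhag and Klf1, and leaving out each mouse. The ratio to Rhag and Klf1 and DESeq2 without each mouse were added after seeing the data. The covariate is the mean log2 CPM of both genes with a prior count of 2. Fits were tested on counts simulated for this comparison over 19745 genes, with 100 genes changed 2-fold and 100 changed 4-fold: edgeR called 45 and 95 of these and 15 unchanged genes, DESeq2 77 and 99 and 79 unchanged genes, and limma-voom 42 and 95 and 17 unchanged genes. Labels call the samples separate mice; p-values measure the spread between them.

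The members and lists were chosen with earlier results of these data known. By the rule for named genes, 25 members, any past the threshold and the 3 at each end of the fold changes are given in every library, and up to 3 genes with the smallest p from each other list are named. A gene that this rule also picks is not reported here.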

Additional observations from a re-analysis of the deposited data

How the results depend on the processing

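Of the mitotic genes, Foxm1 rested on the fewest reads and had 101 to 276 estimated counts per library. The median log2 fold change of the mitotic genes was 0.63 to 1.27 with each mouse left out and 0.85 to 1.02 over 9 other settings, and 0.12 with the Rhag and Klf1 covariate. Under that covariate the values that turned below 0 were -0.18 for Ccnb1, -0.18 for Aurkb, -0.15 for Bub1b, -0.23 for Cenpa, -0.012 for Ube2c, -0.019 for Nusap1, -0.16 for Hmmr and -0.027 for Nek2; the cause was not tested. edgeR called 0 mitotic genes in each of its settings, and DESeq2 called 7 higher. Mitotic genes with groups apart numbered 15 to 35 with each mouse left out, 24 with library totals only, and 0 higher and 3 lower per unit of Rhag and Klf1. Over all genes, 1 was higher and 1 lower. These counts were 2 and 2 with upper-quartile scaling, 5 and 4 with library totals only, 4 and 3 without globin and immunoglobulin genes, 219 and 302 by DESeq2, 9 and 13 by limma-voom and 0 and 0 with the covariate (1159 higher at an unadjusted p under 0.05). With each mouse left out they ranged from 0 to 10 higher and 0 to 9 lower. No paired analysis was possible because mouse numbers do not recur between the groups.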
